A study of Mus musculus with 14 samples.

Results

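The Ly6 surface antigens were followed across 5 lines of mouse ovarian tumour cells. They are the 6 genes Ly6a, Ly6c1, Ly6c2, Ly6d, Ly6e and Ly6k, chosen by symbol from the 35275 genes of the expression table. All 6 lie on chromosome 15, between positions 74762056 and 75111970 of mouse GRCm38, a span of 349.9 kb. The study grew KMF cells and lines derived from them as tumorspheres for 5 days in PromoCell XF medium and measured mRNA by sequencing of 14 RNA samples. KMF cells arose from ID8 ovarian epithelial cells of C57Bl6 origin after passage in mice, and the parental line was sampled as 3 libraries. The FAK KO line is clone KT13, a single KMF clone in which CRISPR/Cas9 disrupted exon 4 of Ptk2, the gene of focal adhesion kinase (FAK), and it was sampled as 3 libraries. The other three lines are KT13 cells with an added gene and so share the edit and the clone. FAK-WT cells carried lentiviral GFP-FAK under a CMV promoter and gave 3 libraries. FAK-R454 cells carried the kinase-inactive GFP-FAK-R454 in the same vector, and 2 libraries were analysed here. β-catenin ΔGSK cells carried retroviral β-catenin without its regulatory GSK3β sites, with GFP made separately, and gave 3 libraries. The transduced lines were selected with puromycin or hygromycin and enriched by flow cytometry, whereas a KT13 line with an empty vector was not analysed here.

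Ly6 proteins are small disulfide-rich domains of the Ly6/uPAR (LU) fold, most of them held at the outer cell surface by a glycosylphosphatidylinositol (GPI) anchor. They are best known as antigens that separate blood cell lineages. Ly6a encodes Sca-1, which marks haematopoietic and other progenitor cells, and Ly6a and Ly6e respond to interferon in many cell types. Ly6c1 and Ly6c2 encode the near-identical Ly6C antigens of monocytes, lymphocytes and endothelium. Ly6d marks B-lineage progenitors and squamous keratinocytes, and Ly6k is a germ cell gene needed for sperm function.

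The coding sequences of Ly6c1 and Ly6c2 differ in few bases, so the start of each is shown. The Ly6c1 gene (ENSMUSG00000079018) lies at chr15:75044018-75048830 and Ly6c2 (ENSMUSG00000022584) at chr15:75108158-75111970, both on the minus strand. The lines below are coding bases 1 to 120 of transcripts ENSMUST00000065408 and ENSMUST00000100542 from the GENCODE annotation of GRCm38, 5′ to 3′, with bases that differ in capitals.
Ly6c1: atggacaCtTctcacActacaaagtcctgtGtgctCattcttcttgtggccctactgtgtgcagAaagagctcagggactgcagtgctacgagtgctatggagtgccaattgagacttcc
Ly6c2: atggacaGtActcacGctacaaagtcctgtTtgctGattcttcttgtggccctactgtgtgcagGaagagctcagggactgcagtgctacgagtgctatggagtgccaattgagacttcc
The 2 coding sequences are 393 bases long and 97.7% identical, and 6 of their 9 differences fall in the stretch shown. Ly6a, with 402 coding bases, was 81.8% identical to Ly6c1 and 52.7% identical to Ly6e. Of 1706 windows of 150 bases, the read length, in the annotated transcripts of Ly6c1, 39 (2.29%) also occurred in Ly6c2, and no other pair of the 6 genes shared a window. How the study's mapping placed fragments that match both genes is not given in the sources used here.

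The sequence before the gene start differed more, and is shown because Ly6c1 mRNA was measured in every library and Ly6c2 in nearly none. The lines below are the 250 bases upstream of each start in the RefSeq annotation of GRCm38.p6, which held entries for these 2 members, at chr15:75048838-75049087 and chr15:75111972-75112221, minus strand, 5′ to 3′, with bases in capitals where the aligned sequences differ or 1 of them runs on alone.
Ly6c1: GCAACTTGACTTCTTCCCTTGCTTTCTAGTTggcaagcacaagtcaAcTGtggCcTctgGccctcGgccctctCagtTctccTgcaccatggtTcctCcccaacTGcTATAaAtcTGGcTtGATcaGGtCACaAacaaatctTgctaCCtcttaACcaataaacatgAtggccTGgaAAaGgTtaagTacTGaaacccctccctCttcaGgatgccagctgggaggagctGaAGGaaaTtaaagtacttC
Ly6c2: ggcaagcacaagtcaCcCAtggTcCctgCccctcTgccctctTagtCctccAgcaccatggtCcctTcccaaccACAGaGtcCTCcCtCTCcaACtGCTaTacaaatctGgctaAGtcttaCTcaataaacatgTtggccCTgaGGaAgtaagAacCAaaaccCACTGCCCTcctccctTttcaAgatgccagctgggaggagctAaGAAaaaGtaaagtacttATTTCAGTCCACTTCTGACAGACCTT
Over the 228 positions where they overlap, 164 bases (71.9%) were the same. Neither 300-base window around the start held TTCNNNGAA, a pair of GAAA with 2 bases between them, or TCAAAG on either strand, letters taken from STAT, interferon response and TCF/LEF motifs. Of 32851 mouse promoter windows of that length, 8.30%, 3.44% and 16.0% held them, in that order.

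The samples had the character of ovarian and mesothelial cells. Of 10 markers of those tissues, 8 were above 1 FPKM (fragments counted on a gene, scaled to its transcript length and to the size of the library) on average in every line, among them Krt8, Wt1 and Msln, while Krt7 and Muc16 stayed below 1. The summed level of these 10 was 1592 to 1835 FPKM for FAK-WT, 1298 to 1335 for FAK-R454 and 1251 to 1434 for β-catenin ΔGSK libraries. It was 1200 to 1227 for KMF and 1107 to 1286 for FAK KO libraries. For FAK-WT over FAK KO, 5 of 8 passed the test used below as higher and 1 as lower, where 15.6% and 25.2% of all genes did. The part of this list in the results below was not tested. Markers of cells that use Ly6 antigens were mostly near 0. The pan-leukocyte gene Ptprc reached 0.00759 FPKM at most and Cd3e was at 0 in each library, and of 10 leukocyte markers the macrophage-associated Cd68 and Cd14 alone were above 1 FPKM. The summed level of the 10 ran from 11.7 to 16.7 FPKM in FAK-WT cells, from 8.88 to 9.18 in FAK-R454, from 7.84 to 8.30 in KMF, from 6.999 to 7.22 in FAK KO and from 4.13 to 5.28 in β-catenin ΔGSK. Of 8 endothelial markers, 1 to 3 were above 1 FPKM by line mean, Tek at 6.75 to 28.7 in every line and Eng and Pecam1 at up to 1.71 and 1.17, while Cdh5 and Kdr stayed at or below 0.0432 FPKM in each library. The summed level of 8 endothelial markers, most of it Tek, was 31.1 to 31.4 FPKM for KMF, 19.3 to 20.8 for FAK KO, 19.5 to 20.1 for FAK-WT, 19.3 to 19.4 for FAK-R454 and 7.47 to 8.61 for β-catenin ΔGSK libraries, and its part in the results below was not tested. Of 8 squamous markers, 3 were above 1 FPKM in each line. They did not share an order. Krt14 averaged 53.4 FPKM for KMF, 53.3 for FAK-WT, 23.8 for FAK-R454, 11.4 for FAK KO and 5.19 for β-catenin ΔGSK libraries. Sprr1a averaged 102.9 FPKM for FAK-WT, 44.8 for FAK KO, 38.1 for β-catenin ΔGSK, 32.7 for FAK-R454 and 32.4 for KMF libraries, and Krt10 stayed between 3.34 and 4.96 FPKM by line mean. The part of these markers in the results was not tested. Ptk2 mRNA, counted over the whole gene, stood at 24.3 ± 0.421 FPKM for KMF and 19.0 ± 1.45 FPKM for FAK KO libraries (SD, n = 3 each). KMF over FAK KO was 0.36 on the log2 scale and passed the test used below (adjusted p = 0.00329 from limma), but a count over the gene is no check of the edit. It was 43.4 ± 1.76 FPKM for FAK-WT (SD, n = 3) and 62.4 ± 4.42 for FAK-R454 libraries (SD, n = 2), so these lines also differed in FAK mRNA (-0.52 for FAK-WT over FAK-R454, adjusted p = 0.0121 from limma). Between 25390558 and 35289859 fragments were counted per library. The third FAK-WT library differed from the other two by a chi-square per gene of 42.5 and 30.5, against 3.15 between the other pair. The third KMF library differed from the others by 23.8 and 29.0, against 4.59 between them. β-catenin ΔGSK libraries 1 and 3 differed by 30.4 and libraries 1 and 2 by 18.1, against 8.75 for 2 and 3. FAK KO libraries 1 and 2 differed by 22.2, against 11.4 for 1 and 3 and 8.17 for 2 and 3.

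Ly6a, Ly6c1 and Ly6e carried nearly all the Ly6 mRNA of these cells. The summed level of all members was 348.0 to 363.1 FPKM for KMF libraries, 64.1 to 82.9 for FAK-WT, 54.6 to 80.0 for β-catenin ΔGSK, 39.6 to 48.1 for FAK-R454 and 36.1 to 37.9 for FAK KO. The other three members were at or close to 0 in every line.

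**Figure D1:**
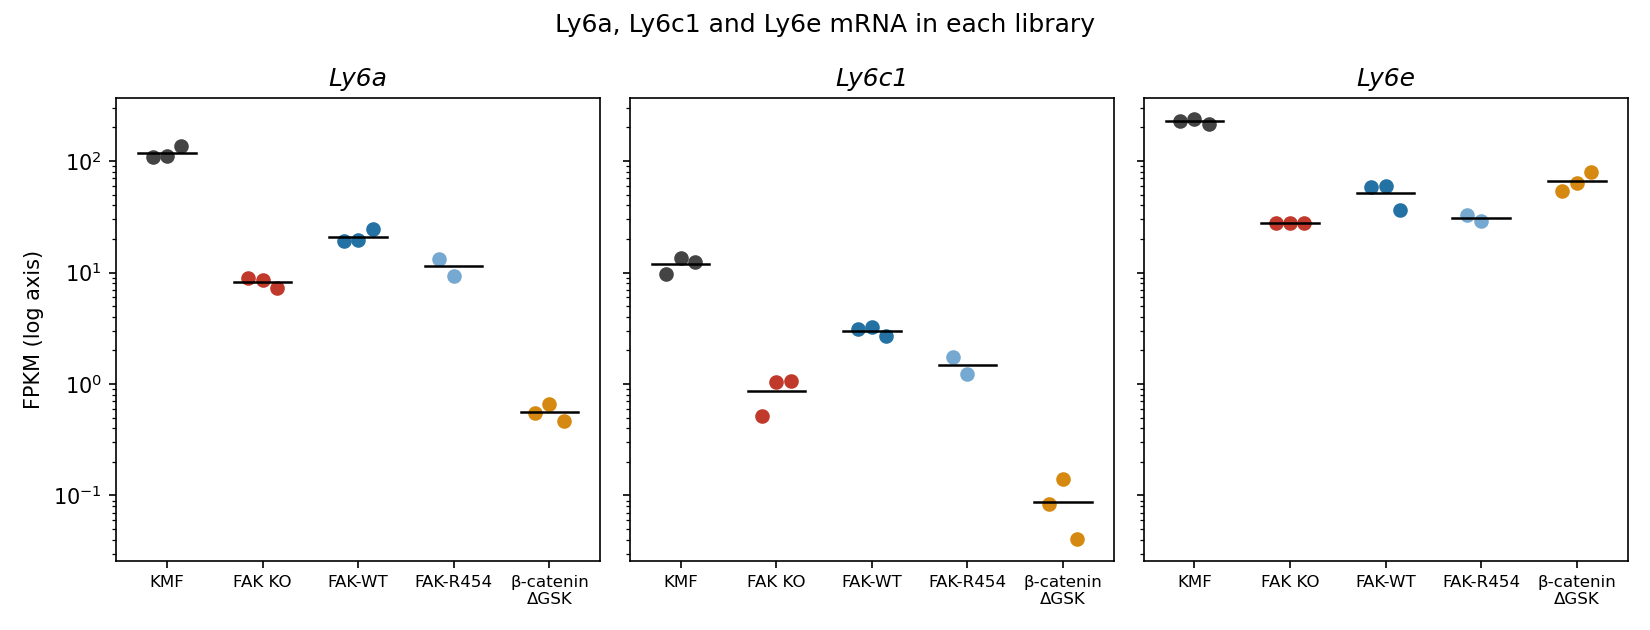
Level of Ly6a, Ly6c1 and Ly6e in each library, in FPKM on a log axis, for the 5 lines. Points are libraries and bars are line means. KMF cells were highest for all 3 genes, and β-catenin ΔGSK cells were lowest for Ly6a and Ly6c1 and second highest by mean for Ly6e.

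Ly6a (ENSMUSG00000075602, chr15:74994877-74998031, minus strand), the Sca-1 gene, spanned the lines from abundant to scarce. In KMF cells its level was 108.4, 110.8 and 136.8 FPKM, and at a mean of 118.6 FPKM it was the 552nd most abundant gene of the line. In FAK KO cells it was 8.87, 8.63 and 7.22 FPKM. In FAK-WT cells it was 19.0, 19.4 and 24.6 FPKM. These 3 lines did not overlap, and FAK-WT cells lay between the knockout and its parent, at 17.7% of the KMF mean against 6.95% in FAK KO cells. FAK-R454 cells gave 13.3 and 9.39 FPKM, both above the FAK KO libraries and below the FAK-WT libraries. β-catenin ΔGSK cells gave 0.553, 0.660 and 0.463 FPKM, from 15, 16 and 13 fragments. That was 0.471% of the KMF mean and below every other library. In bulk RNA, fewer cells with Ly6a mRNA and less of it per cell cannot be told apart.

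Ly6c1 showed the same order of line means at a lower level per length. Its level was 9.74, 13.5 and 12.5 FPKM in KMF cells. In FAK KO cells it was 0.512, 1.05 and 1.06 FPKM, from 13, 23 and 25 fragments. In FAK-WT cells it rose to 3.14, 3.22 and 2.68 FPKM, or 25.3% of the KMF mean. FAK-R454 libraries were at 1.75 and 1.23 FPKM, again between FAK KO and FAK-WT without overlap. In β-catenin ΔGSK cells 2, 3 and 1 fragments were counted, which is 0.0835, 0.140 and 0.0403 FPKM. At this depth the ratio of FAK KO to β-catenin ΔGSK cells for Ly6c1, from 61 against 6 fragments and corrected for library size, was 10.05 with a 95% exact interval of 4.36 to 28.4. The interval covers counting error only.

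Ly6e (ENSMUSG00000022587, chr15:74955051-74959905, plus strand), an interferon-inducible antigen of thymocytes and many other cells, was the most abundant member and followed another order. KMF cells gave 229.8, 238.3 and 213.4 FPKM. The FAK KO libraries lay close together at 27.9, 27.9 and 27.8 FPKM. FAK-WT libraries gave 58.4, 60.1 and 36.5 FPKM, all above FAK KO, with the third library well below the other two. FAK-R454 libraries gave 32.9 and 28.9 FPKM, just above FAK KO. β-catenin ΔGSK cells gave 54.0, 64.1 and 79.3 FPKM, above FAK KO and FAK-R454 and overlapping FAK-WT. Thus the line with the least Ly6a had the second highest mean of Ly6e, 65.8 ± 12.8 FPKM (SD, n = 3).

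Ly6d (ENSMUSG00000034634, chr15:74762056-74763620, minus strand) was at 0 to 0.419 FPKM, from 0 to 11 fragments per library. Its 3 FAK-WT libraries, at 0.2003 to 0.315 FPKM, lay above those of FAK-R454, at 0 to 0.0968, and of β-catenin ΔGSK cells, at 0 to 0.137, and within the ranges of KMF and FAK KO. With at most 7 fragments in any of these 8 libraries, no difference was tested. Ly6c2 had 2 fragments in the third KMF library and none in the other 13. The Ly6c2 value was divided by a transcript length of 2680 bases, the longest annotated, which lowers its FPKM relative to Ly6c1 with 844 bases. Ly6k (ENSMUSG00000044678, chr15:74796874-74799986, minus strand), which overlaps the annotated gene Gm17189, had no fragment in any library. A count of 0 allows up to 3 fragments, for counting error only. These 3 members were below the level at which genes were tested.

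The lines were compared 2 at a time with limma on log2(FPKM + 0.1), over genes with a mean above 1 FPKM in at least 1 of the 2 lines, and a gene passed at a Benjamini-Hochberg adjusted p under 0.05 over all genes tested. Fold changes are on that log scale, so those of weakly expressed genes are understated. Ly6c1 entered the tests against FAK KO only through the other line, and Ly6a and Ly6c1 entered those against β-catenin ΔGSK only through the other line, so that their entry already favoured a difference.

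Putting FAK back into the knockout clone was followed by more mRNA of the 3 members measured. For FAK-WT over FAK KO, 3 of 3 tested members passed as higher, where 15.6% of all 11841 genes tested did, and 0 as lower, where 25.2% did. The log2 fold change of Ly6a was 1.34 (standard error 0.119, adjusted p = 1.70e-04 from limma), from a mean of 8.24 to 21.0 FPKM. Ly6c1 rose by 1.73 on the log2 scale (standard error 0.248, adjusted p = 0.00139 from limma), the largest rise of the 3 and the 93rd largest of all genes. Ly6e rose by 0.85 (standard error 0.168, adjusted p = 0.00572 from limma). Without the third FAK-WT library the Ly6e value was 1.09 (adjusted p = 1.90e-05 from limma). FAK-WT cells stayed below their parent, with log2 fold changes over KMF of -2.49 for Ly6a, -1.94 for Ly6c1 and -2.17 for Ly6e, and the 3 passed as lower, where 23.5% of genes did and 18.2% passed as higher.

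Kinase-inactive FAK gave smaller differences. Over FAK KO, the log2 fold changes in FAK-R454 cells were 0.44 for Ly6a (95% interval 0.10 to 0.79, adjusted p = 0.0743 from limma), 0.75 for Ly6c1 (0.03 to 1.47, adjusted p = 0.124) and 0.15 for Ly6e (-0.02 to 0.31, adjusted p = 0.182). Thus 0 of 3 passed as higher, where 9.78% of all genes did, and 0 as lower, where 9.89% did. With limma 2 of 3 had an unadjusted p under 0.05, and limma-voom on recovered fragments also called 0. With the sample number as a block Ly6c1 passed as higher (adjusted p = 0.00936 from limma). Ly6a passed when the second FAK KO library was left out (adjusted p = 0.0401 from limma). Leaving out a FAK-R454 library leaves 1, so no call is read from those fits. Over all alternatives the log2 fold change ran from 0.19 to 0.69 for Ly6a and from 0.42 to 0.99 for Ly6c1.

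Wild-type and kinase-inactive FAK were also compared directly. Ly6a in FAK-WT cells exceeded its FAK-R454 level by 0.89 on the log2 scale (standard error 0.177, adjusted p = 0.0384 from limma) and Ly6c1 by 0.98 (standard error 0.171, adjusted p = 0.0285 from limma). Ly6e differed by 0.71, with the lowest FAK-WT library at 36.5 and the highest FAK-R454 library at 32.9 FPKM, and did not pass (95% interval 0.17 to 1.24, adjusted p = 0.110 from limma). So 2 of 3 members passed as higher, where 3.38% of genes did, and 0 as lower, where 4.44% did. With 2 FAK-R454 libraries these calls rested on single samples. Without the first or second FAK-WT library the adjusted p from limma was 0.0717 and 0.103 for Ly6a and 0.0817 and 0.107 for Ly6c1, so neither passed. Both calls were also lost with no filter on low values. Without a FAK-R454 library 1 is left, so no call is read from those fits. Over all alternatives the log2 fold change ran from 0.64 to 1.14 for Ly6a and from 0.69 to 1.22 for Ly6c1. Without the third FAK-WT library Ly6e passed, at 0.94 (adjusted p = 5.56e-05 from limma), and it also passed in 1 fit of the 5 lines (adjusted p = 0.0280).

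Active β-catenin divided the members. In β-catenin ΔGSK over FAK KO cells Ly6a fell by 3.67 on the log2 scale (standard error 0.148, adjusted p = 2.50e-07 from limma), a mean FPKM 14.8 times lower and the 70th largest fall of 11915 genes tested. Ly6e rose by 1.22 (standard error 0.122, adjusted p = 5.15e-05 from limma), a mean 2.36 times higher. One member passed in each direction of the 2 tested, where 23.7% of genes passed as higher and 34.4% as lower. Ly6c1 was under the level for testing in both lines, and in a fit with no such level its log2 fold change was -2.35 (adjusted p = 0.00161 from limma). It also entered the test when the first FAK KO library was left out, with -2.65 (adjusted p = 5.18e-04 from limma). Against FAK-WT cells Ly6a fell by 5.00 and Ly6c1 by 4.08, and both passed, where 26.4% of genes passed as lower and 24.4% as higher. There the log2 fold change of Ly6e was 0.37 (95% interval -0.10 to 0.83, adjusted p = 0.166 from limma). Against FAK-R454 cells Ly6a fell by 4.11 and Ly6c1 by 3.10, where 27.7% of genes passed as lower, and Ly6e rose by 1.07, where 21.2% passed as higher. The size of these Ly6c1 falls, from 1 to 3 fragments per β-catenin ΔGSK library, depended on the pseudocount. With 1 in place of 0.1 the log2 fold change was -1.88 against FAK-WT and -1.19 against FAK-R454 cells, with 0.01 it was -5.08 and -4.06, and it passed each time.

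**Figure D2:**
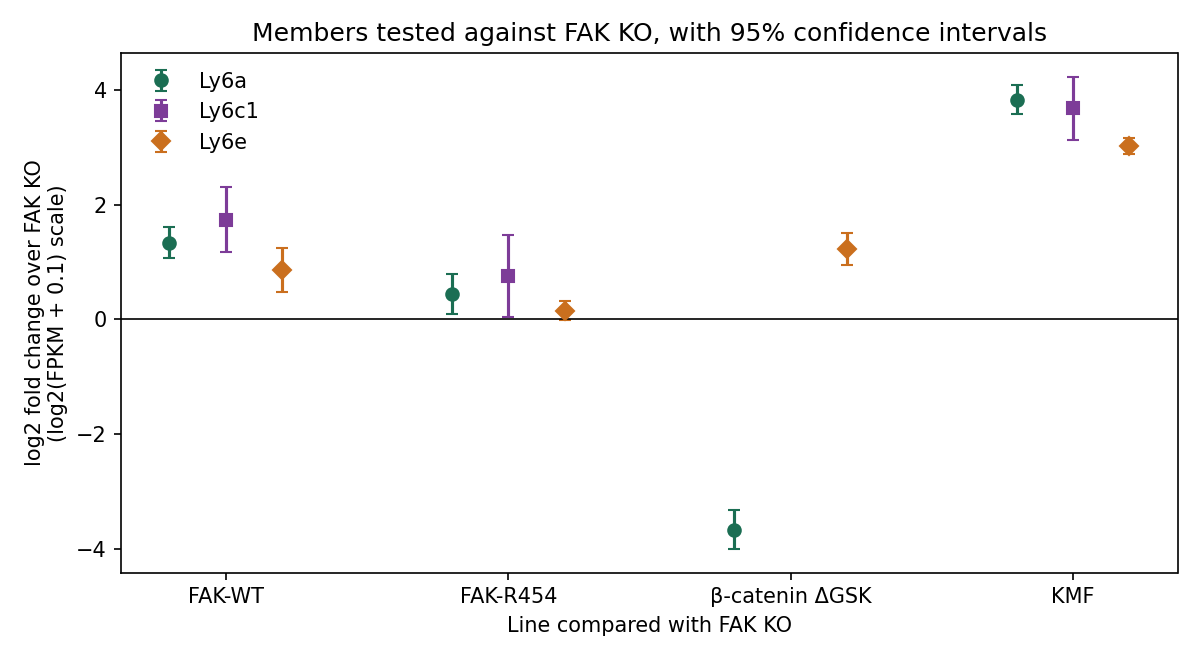
Log2 fold change over FAK KO, on the log2(FPKM + 0.1) scale, of each member tested in 4 lines, with 95% confidence intervals from limma. Ly6a fell by 3.67 and Ly6e rose by 1.22 in β-catenin ΔGSK cells, where Ly6c1 was not tested, and the 3 genes lay above 3 in KMF cells.

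The parent and its knockout clone differed in all 3 tested members. In KMF over FAK KO cells the log2 fold change was 3.83 for Ly6a, 3.68 for Ly6c1 and 3.02 for Ly6e, with standard errors of 0.110, 0.244 and 0.0623 and adjusted p of 1.59e-07, 7.53e-06 and 3.01e-08 from limma. Without the third KMF library they were 3.72, 3.64 and 3.07. The 3 members passed as higher, where 23.1% of genes did and 28.7% passed as lower, and stood 13th, 15th and 36th from the top of 11893 genes by fold change. KT13 is 1 clone, so the loss of FAK and what else sets this clone apart from KMF cells cannot be told apart here. Between KMF and β-catenin ΔGSK cells the fall was 7.50 for Ly6a, 6.02 for Ly6c1 and 1.80 for Ly6e, and these 3 passed as lower, where 31.8% of genes did and 25.1% passed as higher. For Ly6c1 this was -3.56 with a pseudocount of 1 and -7.05 with 0.01. FAK-R454 over KMF cells gave log2 fold changes of -3.39 for Ly6a, -2.92 for Ly6c1 and -2.87 for Ly6e, and the 3 passed as lower, where 21.2% of genes did and 22.5% passed as higher.

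In the order of their mean levels, Ly6a and Ly6c1 ran KMF, FAK-WT, FAK-R454, FAK KO and β-catenin ΔGSK. For both genes the step from KMF to FAK-WT passed the test, and that from FAK-R454 to FAK KO did not pass. That from FAK-WT to FAK-R454 passed for both with every library kept or without the third FAK-WT library. It was lost for both without the first or second FAK-WT library, or with no filter on low values. For Ly6a it was also lost with no trend or with chromosomes centred. The step from FAK KO to β-catenin ΔGSK passed for Ly6a and was under the level for testing for Ly6c1. Ly6e ran KMF, β-catenin ΔGSK, FAK-WT, FAK-R454 and FAK KO. Of its neighbours only KMF and β-catenin ΔGSK cells differed by the test, whereas the step from β-catenin ΔGSK to FAK-WT, that from FAK-WT to FAK-R454 and that from FAK-R454 to FAK KO each missed it.

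The ratio of Ly6e to Ly6a showed the split within single libraries, where library size cancels. It was 2.12, 2.15 and 1.56 in KMF libraries, 3.14, 3.24 and 3.85 in FAK KO libraries, 3.07, 3.09 and 1.48 in FAK-WT libraries and 2.46 and 3.08 in FAK-R454 libraries. In β-catenin ΔGSK cells it was 97.5, 97.2 and 171.5. Ly6e made up 98.8% to 99.2% of the summed FPKM of all members in those cells and 56.9% to 76.9% elsewhere. The ratio of Ly6a to Ly6c1 ran from 6.03 to 17.3 in the other lines, and with 1 to 3 Ly6c1 fragments per β-catenin ΔGSK library none is read there.

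**Figure D3:**
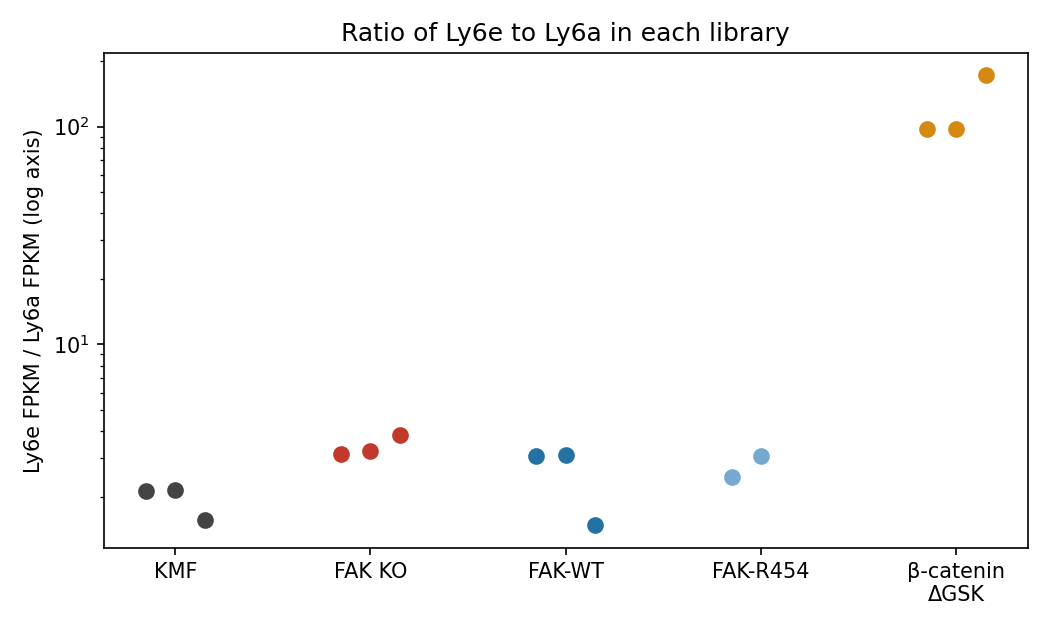
Ratio of Ly6e to Ly6a FPKM in each library, on a log axis, for the 5 lines. The 3 β-catenin ΔGSK libraries lie at 97.2 or above and the other 11 at 3.85 or below.

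Across the 14 libraries, which share their line structure and so are no independent points, the log2 levels of Ly6a and Ly6c1 had a Pearson r of 0.983. It was 0.477 for Ly6a with Ly6e and 0.544 for Ly6c1 with Ly6e. Of 12255 genes, those with the pattern most like Ly6a were Pea15a (r = 0.990), a small regulator of ERK and cell death, Bgn (r = 0.988), the matrix proteoglycan biglycan, and Cdc42ep2 (r = 0.985), an effector of Cdc42. Bgn averaged 530.7 FPKM for KMF, 140.7 for FAK-WT, 119.9 for FAK-R454, 49.0 for FAK KO and 4.67 for β-catenin ΔGSK libraries. The genes most like Ly6c1 were Ly6a, Litaf (r = 0.983) and Sema4b (r = 0.978). Those most like Ly6e were Hyls1 (r = 0.984), Ttc7 (r = 0.980) and Fhl2 (r = 0.980), and the LIM protein gene Fhl2 went from 1.52 FPKM in FAK KO to 10.4 FPKM in KMF cells.

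Other genes with an LU domain were then read as a list. Of 37 in the table, 7 had a mean above 1 FPKM in some line, 23 stayed below it and 7 were at 0 in every library. Of the 7 measured, 5 lie in the same stretch of chromosome 15, with starts at -280.0 to -247.0 kb from that of Ly6a. Slurp1, a secreted LU protein of epithelia, averaged 24.5 FPKM for FAK-WT, 17.3 for KMF, 11.1 for FAK-R454, 10.04 for FAK KO and 0.797 for β-catenin ΔGSK libraries. Lynx1, a membrane-bound modulator of nicotinic receptors, averaged 11.2, 9.83, 5.58, 4.51 and 3.21 FPKM in that order. For FAK-WT over FAK KO, 4 of 7 passed as higher, with log2 fold changes of 1.67 for Psca, 1.29 for Lynx1, 1.28 for Slurp1 and 0.32 for Lypd2, and 1 as lower, the complement inhibitor Cd59a at -1.45, where 15.6% and 25.2% of all genes did. Psca, with means of 1.12 FPKM for FAK-WT and 0.287 for FAK KO libraries, entered the test only through the line where it was higher. The list's median was 0.32, against -0.08 over all genes. In β-catenin ΔGSK over FAK KO cells 0 of 6 passed as higher and 5 as lower, with -3.96 for Slurp2, -3.54 for Slurp1, -1.999 for Cd59a, -1.78 for Lypd2 and -0.48 for Lynx1, where 23.7% and 34.4% of all genes did. Slurp2, Slurp1 and Cd59a, at 0.0241, 0.797 and 0.861 FPKM in β-catenin ΔGSK cells, entered the test only through FAK KO cells, where they were higher. The urokinase receptor gene Plaur was at -0.16 and did not pass. The median of the 6 was -1.89 against -0.09 over all genes. For FAK-R454 over FAK KO, 0 of 6 passed as higher and 1 as lower, where 9.78% and 9.89% of all genes did. For KMF over FAK KO, 2 of 6 passed as higher and 3 as lower, where 23.1% and 28.7% did. FAK-WT over FAK-R454 cells gave 3 of 7 as higher and 0 as lower, where 3.38% and 4.44% did.

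**Figure D4:**
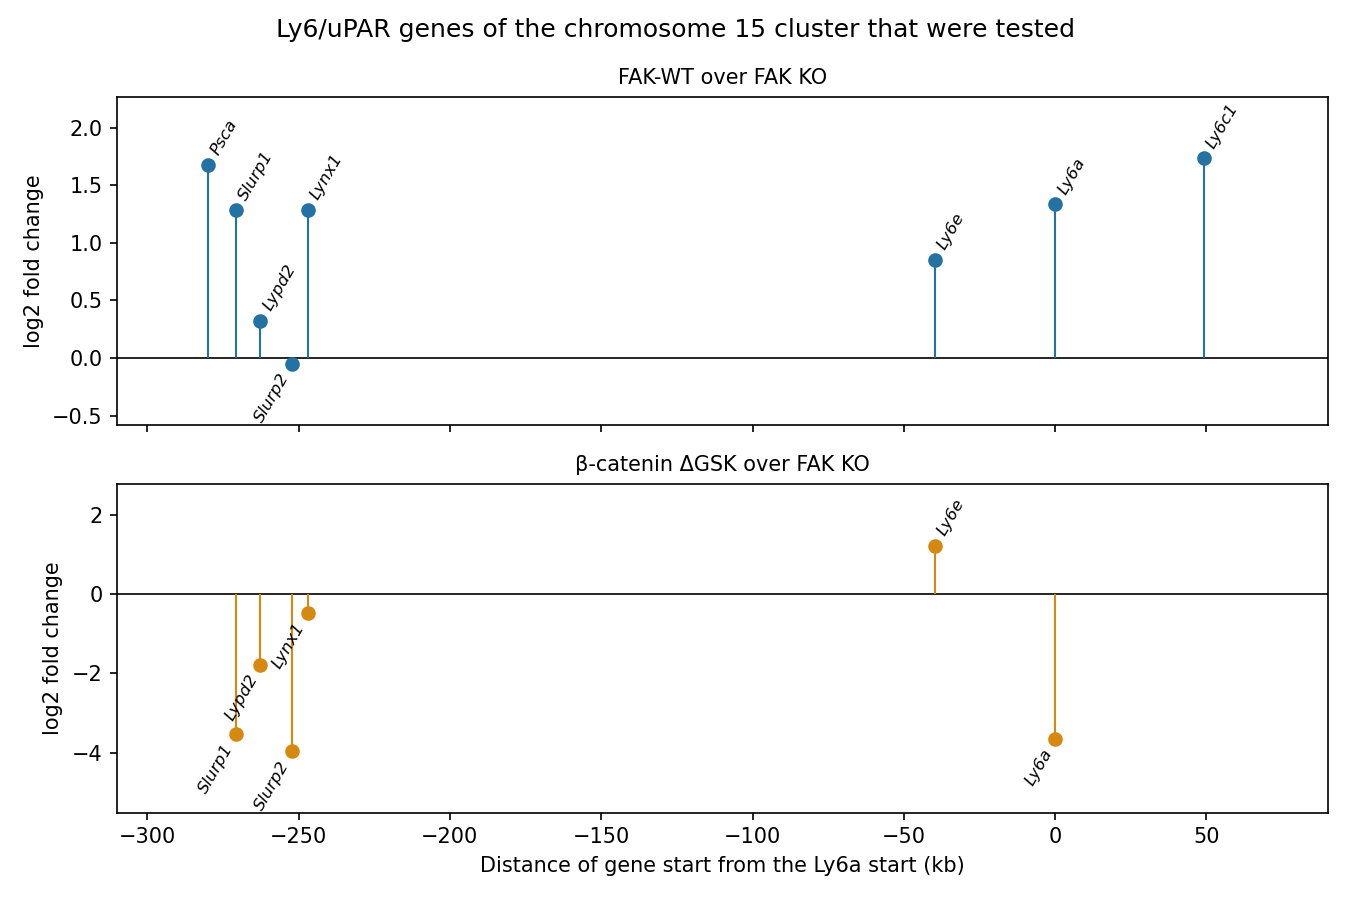
Log2 fold change of the LU genes on chromosome 15 that were tested, against the distance of the gene start from the Ly6a start in kb, for FAK-WT and β-catenin ΔGSK over FAK KO cells. Each line and point is a gene. In β-catenin ΔGSK cells Ly6e alone of those shown lies above 0, at 1.22.

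Chromosome 15 was also read as a whole. The paper reports copy number gains on this chromosome in KMF over ID8 cells, in regions that hold Myc and Ptk2. The part of copy number in the results was not tested. For FAK-WT over FAK KO the median log2 fold change of its 479 tested genes was 0.30, against -0.08 over all genes. Within 1 Mb of the members 62 other genes were listed and 21 were tested for FAK-WT over FAK KO. Of these 15 passed as higher and 0 as lower, where 15.6% and 25.2% of all genes did, and the median was 0.43 on the log2 scale. The largest change was that of Mafa, a transcription factor gene that entered only through FAK-WT cells (0.4999 FPKM in FAK KO, 2.98 in FAK-WT), at 2.34, followed by the immediate early gene Arc at 0.89. For FAK-R454 over FAK KO, 5 of 21 passed as higher and 0 as lower, where 9.78% and 9.89% of all genes did, with a median of 0.21 against 0.14 for chromosome 15. In β-catenin ΔGSK over FAK KO cells the counts were 3 and 5 of 21 with a median of -0.07, where 23.7% and 34.4% of all genes passed. In KMF over FAK KO cells they were 6 and 5 of 22 with a median of 0.03, where 23.1% and 28.7% did. When the genes of each chromosome were centred on their chromosome's median in each sample, the log2 fold changes for FAK-WT over FAK KO were 1.04 for Ly6a, 1.43 for Ly6c1 and 0.55 for Ly6e, and the 3 still passed (adjusted p = 0.00118, 0.00309 and 0.0306 from limma). In FAK-WT over FAK-R454 cells Ly6a then no longer passed (adjusted p = 0.0908 from limma).

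Interferon-induced genes passed in both directions. Except for Ifitm3, those named here entered their tests only through the line where they were higher. For FAK-WT over FAK KO, 5 of 19 tested passed as higher, among them Ifit3 at 1.29 and Irf7 at 1.13, and 3 as lower, where 15.6% and 25.2% of all genes did, with a list median of 0.08. In KMF over FAK KO cells 7 of 20 passed as higher and 4 as lower, where 23.1% and 28.7% of all genes did, with Psmb8, an immunoproteasome subunit gene, at 1.56 and the antiviral gene Oas2 at -2.55. In β-catenin ΔGSK over FAK KO cells, where Ly6e rose and Ly6a fell, 3 of 19 passed as higher and 10 as lower, where 23.7% and 34.4% of all genes did, with a median of -0.26. Usp18, at 1.83, rose there and Oas2, at -3.38, fell. The membrane antiviral gene Ifitm3 rose in FAK-WT, FAK-R454, β-catenin ΔGSK and KMF over FAK KO cells, by 0.86, 0.39, 0.67 and 0.89.

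A list of genes linked to the making, attachment or remodelling of the GPI anchor, which holds Ly6 proteins at the surface, was also counted. It includes the phosphodiesterase genes Gdpd1 and Gde1, whose role in these steps is not established here. Of 33 tested, 1 passed as higher and 9 as lower for FAK-WT over FAK KO, where 15.6% and 25.2% of all genes did, and the median was -0.21 on the log2 scale against -0.08 over all genes. For FAK-R454 over FAK KO, 1 passed as higher and 5 as lower, where 9.78% and 9.89% did. The 1 gene higher in both was Gpaa1, a subunit gene of the enzyme that attaches the anchor, at 0.39 and 0.26. In β-catenin ΔGSK over FAK KO cells 5 passed as higher and 11 as lower, where 23.7% and 34.4% did, with Pgap3, which remodels the anchor's lipid, at -1.18 and Pgap6, a GPI-specific phospholipase gene, at 0.77. In KMF over FAK KO cells 3 passed as higher and 14 as lower, where 23.1% and 28.7% did, with Pigp, a subunit gene of the first step of synthesis, at -1.14. Surface protein was not measured in these libraries.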

How the data were processed

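RNA from 14 samples of 5 lines was analysed. The authors deposited 1 table of FPKM per gene and sample, made from paired-end reads of 150 bases from poly(A)-selected libraries. The methods name TopHat2 as the mapper, while the submitters' processing notes name STAR 2.5, CASAVA 1.8, DESeq2 and the build mm10. The sources also differ on the sequencer. Multiplying the deposited FPKM by gene length and dividing by each library's smallest step gave whole fragments for 100% of values above 0 (tolerance 0.01), and hence the depth. FPKM is per length of the longest transcript, so a gene that uses a shorter one is understated.

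Values were compared as log2(FPKM + 0.1) with limma 3.58.1 in R 4.3.3 (eBayes with trend), 2 lines at a time over 10 pairs, for genes with a mean above 1 FPKM in at least 1 line, with Benjamini-Hochberg adjustment over all genes tested. The script was tested on simulated data. The comparisons against FAK KO share those libraries. The labels call the RNA samples independent. The methods describe independent KMF samples from various passages, and call those of the KT13 lines replicates without naming separate cultures. Hence p-values measure the spread between these samples, which may be technical within the KT13 lines. The named genes are the 6 members in every comparison, the 3 genes most correlated with each measured member, and, from lists counted whole, at most the 4 with the largest change among those that passed in a comparison, with some genes of stated role: other LU genes, GPI anchor genes, interferon-induced genes, neighbours within 1 Mb and markers of 4 cell types. Lypd2 in FAK-WT over FAK KO cells was added after its value was seen. Members and lists were chosen with earlier results of these data known. Symbols of 3 LU genes and 1 GPI gene found no row. Sequences came from GENCODE transcripts and RefSeq promoters, aligned with Biopython 1.88. Alternatives were other pseudocounts, filters, scalings and models, the sample number as a block, and each library left out.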

Additional observations from a re-analysis of the deposited data

How the results depend on the processing

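Over 30 fold changes of Ly6a, Ly6c1 and Ly6e, 449 alternative values were computed, and 429 kept their direction and their side of the threshold, 12 no longer passed, 7 newly passed and 1 reversed. These counts include fits with 1 FAK-R454 library left, where the other line alone gave the spread. The reversed value was Ly6e in FAK-R454 over FAK KO cells, at -0.0095 with each chromosome centred (adjusted p = 0.940 from limma). For FAK-R454 over FAK KO, the number of members higher was 0, and 1 with the sample number as a block, through Ly6c1 (adjusted p = 0.00936 from limma), and 0 to 1 with 1 library left out. In β-catenin ΔGSK over FAK KO cells the number lower was 1, and 2 with no filter on low values, since Ly6c1 was then tested, and 1 to 2 with 1 library left out. In FAK-WT over FAK-R454 cells the number higher was 2, and 0 with no filter, 1 with a filter at 5 FPKM (Ly6c1 was then not tested), 1 with no trend and 1 with chromosomes centred, and 0 to 3 with 1 library left out. The cause of the other shifts was not tested. In that comparison the block and 1 fit of the 5 lines each gave 3, with Ly6e (adjusted p = 2.12e-05 and 0.0280 from limma). The Ly6e difference between β-catenin ΔGSK and FAK-WT cells passed with chromosomes centred, at 0.73 (adjusted p = 0.0137 from limma). The sample numbers were not taken as pairs, since the study's methods name no pairing. Deviations of same-numbered samples correlated from -0.272 to 0.481 across genes. The highest, 0.481 and 0.321, were those of samples 1 and 2 of β-catenin ΔGSK with FAK KO cells, where sample 3 gave 0.0972. Median-of-ratios scaling moved the median of all genes in β-catenin ΔGSK over FAK KO cells from -0.09 to 0.02. Depth limits Ly6c1 in β-catenin ΔGSK cells, with 1 to 3 fragments per library, and Ly6c2, Ly6d and Ly6k in every line.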
